A study of Mus musculus with 11 samples.

Results

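A set of 9 genes of the lipoxygenase and eicosanoid pathway was followed in liver endothelial cells (ECs): *Alox12*, *Alox5*, *Alox5ap*, *Lta4h*, *Ltc4s*, *Ephx2*, *Ptgr1*, *Hpgd* and *Pla2g4a*. They were chosen by name, and all 9 were among the 29307 genes of the count table. A gene was tested when edgeR's filter on low counts (filterByExpr) kept it, which held for 12905 genes in all and for 8 of the 9; *Alox5* had too few counts. The comparison asked how the transcripts of hepatic sinusoidal ECs differ between mice raised without any microbes and mice with a microbiota. Libraries came from 5 germ-free (GF) and 6 conventionally raised (CONV-R) mice, 1 library per mouse. All were male C57BL/6J mice of 10 to 12 weeks that carried no engineered allele named in the labels. GF mice were kept in sterile isolators, CONV-R mice were specific-pathogen-free animals derived from those colonies, and both received the same diet. Liver cells that bound CD146 on magnetic beads were sorted by flow cytometry for CD31, CD105 and CD146, and 20 ng of their RNA was amplified across the whole transcriptome before sequencing. The paper reports that GF livers yielded fewer sorted ECs and much less RNA than CONV-R livers. It also states that viability of the sorted cells was low. Yield differed along with the group, so its part in any difference cannot be told apart from that of the microbiota. A further GF library had been removed by the authors for its low number of mapped reads. In such bulk libraries fewer cells of a type and less RNA per cell cannot be told apart.

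Eicosanoids are short-lived signalling lipids made from arachidonic acid, which phospholipases cut from membrane phospholipids. Lipoxygenases turn it into hydroxy fatty acids and leukotrienes, cyclooxygenases into prostaglandins and thromboxane, and cytochrome P450 enzymes into epoxides that epoxide hydrolases open. Leukotriene synthesis is best known from myeloid cells, and 12-lipoxygenase and thromboxane synthesis from platelets.

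The members that changed were *Alox12*, the platelet-type 12-lipoxygenase, which was lower in GF ECs, and *Hpgd*, the dehydrogenase that inactivates prostaglandins, which was higher. Their promoters are shown because these genes moved in opposite directions. Each stretch is the 250 bases before the RefSeq transcript start, from RefSeq on GRCm38.p6, 5′ to 3′ on the strand of the gene: chr11:70255371-70255620 on the minus strand for *Alox12* and chr8:56294302-56294551 on the plus strand for *Hpgd*. GENCODE sets the gene starts at 70255353 and 56294585. Capitals mark matches on either strand to the TATA box motif TATAAA, the GC box motif GGGCGG and the CAAT box motif CCAAT, which were searched with the results known; no matches overlap in these stretches.
Alox12 promoter: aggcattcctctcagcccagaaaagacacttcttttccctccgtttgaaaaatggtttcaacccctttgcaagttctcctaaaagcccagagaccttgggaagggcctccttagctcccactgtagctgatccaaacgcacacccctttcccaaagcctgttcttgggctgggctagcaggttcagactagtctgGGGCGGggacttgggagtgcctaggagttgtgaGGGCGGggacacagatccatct
Hpgd promoter: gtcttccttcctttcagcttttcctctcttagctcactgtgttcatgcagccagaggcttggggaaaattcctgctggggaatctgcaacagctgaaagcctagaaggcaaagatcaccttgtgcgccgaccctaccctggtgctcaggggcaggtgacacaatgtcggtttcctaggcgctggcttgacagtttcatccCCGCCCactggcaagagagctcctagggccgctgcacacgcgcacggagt
Both stretches held the GC-rich GGGCGG motif: *Alox12* had 2 matches, whose first bases lay at -55 and -22 from the start, and *Hpgd* had 1 on the opposite strand (read there as CCGCCC) at -50. Neither held either of the other motifs. Of all 32851 promoter stretches of this length, 32.7% held the GC box motif, 12.4% the TATA box motif and 33.8% the CAAT box motif, so the shared motif is a common one. Promoter sequence was matched for 7 of the 9 members; *Alox5ap* and *Ephx2* had no entry.

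Total counts per library were 7922855 to 14669352 in CONV-R mice (median 12425849) and 7242717 to 16164588 in GF mice (median 10425837), and the groups overlapped (p = 0.411, two-sided exact permutation test). GF replicate 2 had counts for 22674 genes and the other 10 libraries for 15456 to 18495. The 10 sinusoidal markers (*Stab1*, *Stab2*, *Lyve1* and others) together reached 33028 to 39736 CPM in CONV-R and 32098 to 44724 CPM in GF libraries, so the labelled cell type carried its defining transcripts in every library. Levels are given as CPM, counts relative to the library total after TMM scaling of the totals.

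**Figure D1:**
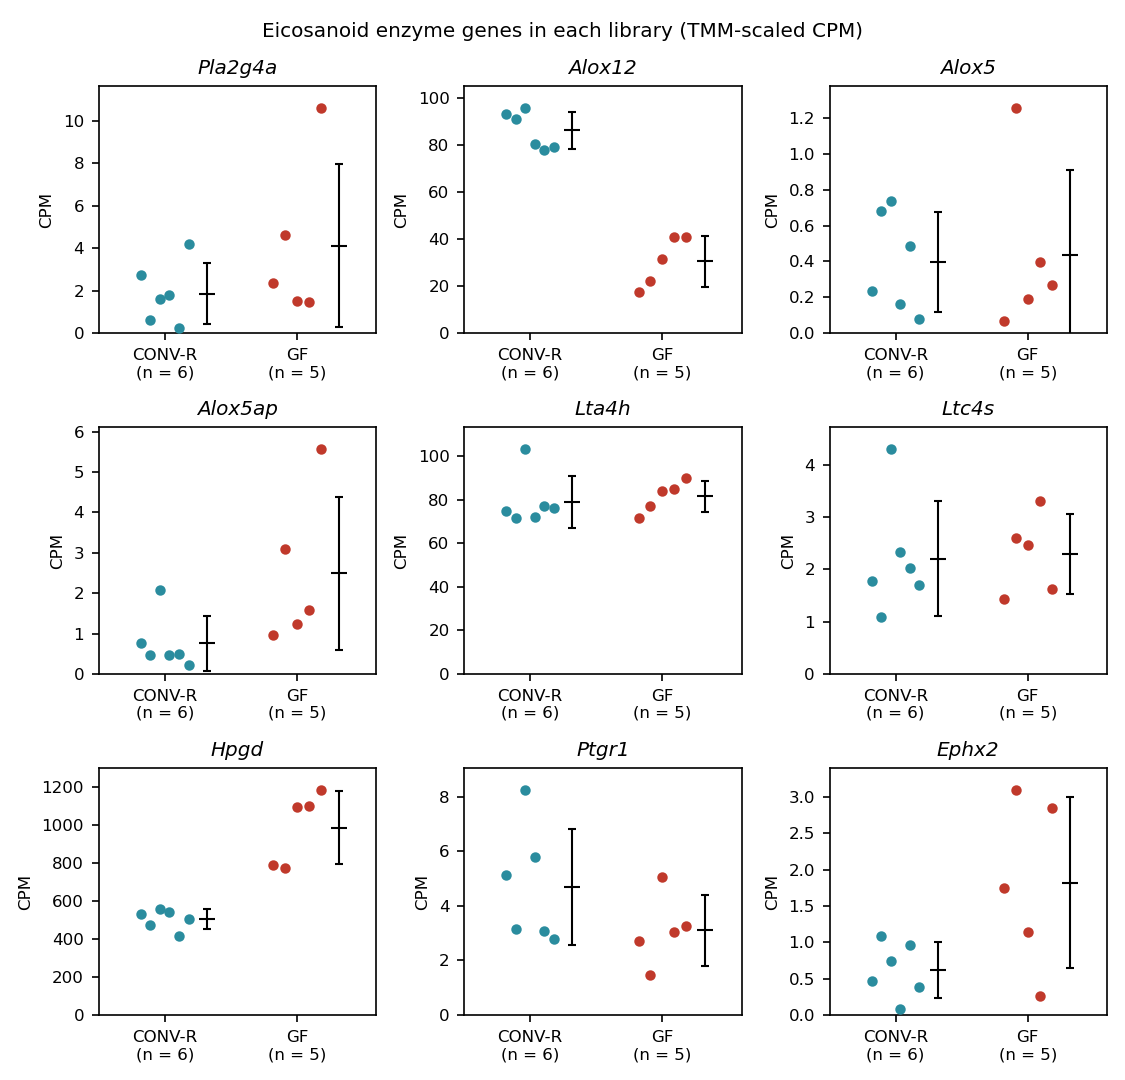
Level of each of the 9 eicosanoid genes in every library, in TMM-scaled CPM on a linear axis from 0. Each point is 1 mouse (turquoise: CONV-R, n = 6; red: GF, n = 5) in order of replicate number, and the bar beside each group is its mean ± SD. Every GF mouse lay below every CONV-R mouse for *Alox12* and above for *Hpgd*, while the groups overlapped in the other 7 panels.

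Genes were compared by the quasi-likelihood (QL) test of edgeR, and p values were adjusted by the method of Benjamini and Hochberg (BH) over all 12905 tested genes. On this basis 2 of the 8 tested members had an adjusted p under 0.05, 1 higher and 1 lower in GF ECs. The same threshold was passed by 7.48% of all tested genes, 4.8% in the higher and 2.67% in the lower direction. That background of 965 genes fell to 622 of 13131 without GF replicate 6 and to 625 of 12761 without CONV-R replicate 4, with 2 members called in each. Groups did not overlap for the same 2 of 9 members, against 5.59% of tested genes (3.22% higher, 2.37% lower). At an unadjusted p under 0.05 there were 4 members, 3 of them higher in GF ECs. Of all tested genes 23% passed, with 1612 of the 12905 higher in GF ECs. Of the 3 higher members, *Alox5ap* was kept by the filter mainly through its GF counts. With so few members these shares are a description. The median log2 fold change of the 8 members was 0.52 in GF relative to CONV-R ECs, and that of all tested genes was -0.01.

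Levels were compared between genes as CPM per kb of exon. In CONV-R ECs *Hpgd* stood first, with 300.03 ± 31.7 CPM per kb (SD, n = 6), followed by *Alox12* with 21.1 ± 1.94 and *Lta4h* with 13.0 ± 1.96. These 3 levels did not overlap with each other or with the next, *Ltc4s*, at 2.17 ± 1.09. *Ptgr1* (2.04), *Alox5ap* (0.533), *Pla2g4a* (0.290), *Ephx2* (0.250) and *Alox5* (0.0964) followed, each overlapping its neighbour. In GF ECs *Hpgd* rose to 587 ± 114 CPM per kb (SD, n = 5) and *Lta4h*, at 13.3 ± 1.18, stood above *Alox12*, at 7.46 ± 2.62, without overlap. The abundant members of this pathway in sorted sinusoidal ECs were thus a prostaglandin-degrading enzyme, a 12-lipoxygenase and leukotriene A4 hydrolase, and the 5-lipoxygenase gene *Alox5* had the lowest level in both groups.

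Release of arachidonic acid opens the pathway. *Pla2g4a*, the cytosolic phospholipase A2 that cuts arachidonic acid from phospholipids (ENSMUSG00000056220, chromosome 1 of GRCm38, 149829618 to 149961290, minus strand), was sparse, with 136 counts over the CONV-R and 189 over the GF libraries. It had 0.242 CPM at the lowest, 1.68 at the median and 4.19 at the highest in CONV-R mice, and 2.34, 4.64, 1.52, 1.45 and 10.6 CPM in GF replicates 1, 2, 4, 5 and 6. The groups overlapped, and the high GF mean of 4.11 ± 3.84 CPM (SD, n = 5), against 1.85 ± 1.44 (SD, n = 6), rested on replicate 6. The log2 fold change was 1.12 (SE 0.62, edgeR QL test, BH-adjusted p = 0.291), with a 95% confidence interval from -0.18 to 2.43. Without GF replicate 6 it was 0.43 (BH-adjusted p = 0.748 in the same test). That library also had the highest summed level of the 12 Kupffer cell and macrophage markers, 955 CPM, whereas the other GF libraries had 209 to 370 and the CONV-R libraries 90.3 to 237. Among tested genes that averaged at least 10 CPM over all libraries, *Adgre1*, the F4/80 antigen of macrophages (8.59 CPM in CONV-R and 33.9 in GF ECs), varied most like *Pla2g4a* within the groups (Pearson r = 0.87 over 11 libraries, each centred on its group mean). That r was the highest of many genes compared, so its size owes in part to that choice. With the summed macrophage markers, a list not picked this way, r was 0.73. The part of macrophage RNA in the *Pla2g4a* level was not tested.

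Of the 12 tested genes of arachidonate release and reacylation, 1 was called. *Acsl3*, a ligase that activates long-chain fatty acids such as arachidonate for return to phospholipids, had 31.6 to 67.3 CPM in CONV-R mice (median 36.7) and 25.5, 24.1, 27.3, 25.9 and 26.0 CPM in GF mice. The groups did not overlap, and the GF libraries lay close together. Its log2 fold change was -0.66 (SE 0.18, edgeR QL test, BH-adjusted p = 0.0327), and the adjusted p exceeded 0.05 when any of 6 single libraries was left out (CONV-R replicates 2 and 5; GF replicates 1, 2, 4 and 6), reaching 0.0691. *Acsl4*, the related ligase that prefers arachidonate and the gene of this group with the highest CPM, had 77.3 ± 18.9 CPM in CONV-R and 69.3 ± 8.54 in GF ECs (SD, n = 6 and 5) and a log2 fold change of -0.16 (BH-adjusted p = 0.6252 in the same test).

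*Alox12* (ENSMUSG00000000320, chromosome 11, minus strand, 14 exon blocks) oxidises arachidonic acid to 12-hydroperoxy fatty acids. It had 77.7 CPM at the lowest, 85.8 at the median and 95.5 at the highest in CONV-R mice. The GF mice had 17.4, 21.9, 31.4, 40.9 and 40.8 CPM. The highest GF library was far below the lowest CONV-R library, and the GF libraries were spread more widely relative to their mean. ECs of CONV-R mice had 2.84-fold more *Alox12* transcript than those of GF mice, with a 95% confidence interval of the log2 fold change from -1.92 to -1.10 (SE 0.19; edgeR QL test, BH-adjusted p = 0.000147). When single mice were omitted, the log2 fold change lay between -1.64 and -1.36 and the adjusted p was 0.000708 at most.

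Because 12-lipoxygenase is a known platelet enzyme, platelet markers were set beside it. The summed level of 10 platelet and megakaryocyte markers was 20.6 to 29.8 CPM in CONV-R and 17.4 to 23.3 CPM in GF libraries, a log2 difference of -0.14 (two-sided exact permutation test, p = 0.266, adjusted over 11 marker lists 0.418); as a mean of log2 CPM over the list the difference turned to 0.21. All 10 were listed and 4 could be tested, none of them called. *Ppbp* had 6.14 CPM in CONV-R and 6.21 in GF ECs, *Gp1ba* had 12.5 and 9.14, and *Pf4*, *Gp9*, *Tubb1* and *Treml1* had group means of at most 1.23 CPM. *Itga2b* had 2.86 and 2.33 CPM, and *Gp5*, too sparse to be tested, had 18 CONV-R and 52 GF counts. Within groups, *Alox12* had a Pearson r of 0.58 with the summed platelet markers and 0.58 with the summed neutrophil and monocyte markers. These values are over libraries that share depth and scaling. The part of platelet RNA in the *Alox12* level was not tested.

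The other lipoxygenases were scarce. *Alox5*, the 5-lipoxygenase that starts leukotriene synthesis (ENSMUSG00000025701, chromosome 6, 116410077 to 116461178, minus strand), had 28 counts over all CONV-R and 21 over all GF libraries. Its level was 0.0776 to 0.737 CPM in CONV-R mice (median 0.359) and 0.0650, 1.26, 0.190, 0.397 and 0.271 CPM in GF mice, with overlap. GF replicate 2 held 13 of the 21 GF counts. In a fit without the filter its log2 fold change was 0.10 (SE 0.91, edgeR QL test, BH-adjusted p = 0.967), so a difference was not detectable at this depth; 4.48% of genes passed in that fit, with the same 2 members.

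*Alox5ap* encodes FLAP, the membrane protein that presents arachidonic acid to 5-lipoxygenase (ENSMUSG00000060063, chromosome 5, 149264767 to 149288153, plus strand). It had 0.233 CPM at the lowest, 0.483 at the median and 2.09 at the highest in CONV-R mice. GF mice had 0.975, 3.09, 1.24, 1.59 and 5.56 CPM. Every GF mouse lay above 5 of the 6 CONV-R mice, and CONV-R replicate 3, with 17 of the group's 49 counts, overlapped with the GF range. The log2 fold change was 1.75 (SE 0.59, 95% confidence interval 0.51 to 2.98) and missed the threshold (edgeR QL test, BH-adjusted p = 0.0798). DESeq2 gave the same size with an adjusted p of 0.0394, and 9.93% of the genes with an adjusted p passed in that test. Counts were 10, 7, 17, 6, 6 and 3 in CONV-R and 15, 32, 13, 12 and 41 in GF libraries. The filter thus kept the gene mainly through the group where it was high. In the edgeR QL test without the filter the log2 fold change was 1.72 (BH-adjusted p = 0.0892). Without CONV-R replicate 3, edgeR gave 2.29 (adjusted p = 0.0186), and without GF replicate 6 it gave 1.23 (adjusted p = 0.256). Within groups, *Alox5ap* varied with the summed platelet markers (Pearson r = 0.66) and with the summed neutrophil and monocyte markers (r = 0.68) over 11 libraries that share these depths and scalings. Most of the neutrophil and monocyte sum was 1 gene, *Lyz2* (35.9 CPM in CONV-R and 95.9 in GF ECs), which macrophages also express. The platelet value rested in part on CONV-R replicate 3, without which it was 0.37. The neutrophil and monocyte value was 0.49 without GF replicate 6. The part of any of these cells was not tested. An antisense gene, *Gm19719*, covers 189 of its exonic bases (13.3%), and since no strand setting is stated, reads there cannot be told apart.

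Leukotriene A4, the product of 5-lipoxygenase, is converted by *Lta4h* to leukotriene B4 and by *Ltc4s* to the cysteinyl leukotriene C4. *Lta4h* (ENSMUSG00000015889, chromosome 10, 93453411 to 93484875, plus strand) had 71.4 CPM at the lowest, 75.4 at the median and 103 at the highest in CONV-R mice, and 71.5, 76.9, 84.1, 85.0 and 89.8 CPM in GF mice. The ranges lay on top of each other, with CONV-R replicate 3 alone well above the GF libraries. A log2 fold change of 0.04 was measured (SE 0.12, edgeR QL test, BH-adjusted p = 0.874). Its 95% confidence interval covered folds from 0.866 to 1.23. Among the members it was thus the one whose level in GF ECs was bounded most tightly around that in CONV-R ECs.

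*Ltc4s* (ENSMUSG00000020377, chromosome 11, 50236461 to 50238616, minus strand) had 1.09 to 4.30 CPM in CONV-R mice (median 1.90) and 1.43, 2.61, 2.48, 3.31 and 1.63 CPM in GF mice. The GF libraries lay inside the CONV-R range, and the log2 fold change was 0.06 (SE 0.40, edgeR QL test, BH-adjusted p = 0.952), but with about 20 counts per library the 95% interval still covered folds from 0.581 to 1.88. The antisense gene *Gm26542* covers 268 of its exonic bases (26.4%), where reads of the pair cannot be told apart. In the wider list, none of the 6 tested genes of leukotriene synthesis and processing was called, and *Abcc1*, which exports leukotriene C4, had a log2 fold change of -0.21 (BH-adjusted p = 0.372 in the same test).

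Of the 6 tested receptors for leukotrienes and related mediators, 2 were called, both higher in GF ECs, beside 4.8% of all tested genes called in that direction; the difference from the other groups of pathway genes was not tested. *Gpr17*, a receptor related to those for cysteinyl leukotrienes and nucleotides, had 3.81 to 7.83 CPM in CONV-R mice (median 5.89) and 15.9, 22.3, 8.86, 9.12 and 11.8 CPM in GF mice. The groups did not overlap, and the log2 fold change was 1.21 (SE 0.26, edgeR QL test, BH-adjusted p = 0.00941). *Cmklr1*, a receptor for chemerin that has also been assigned to resolvin E1, had 3.07 to 12.3 CPM in CONV-R mice (median 6.55) and 38.1, 14.1, 12.3, 14.3 and 14.8 CPM in GF mice. Its groups touched without overlapping, at CONV-R replicate 1 and GF replicate 4, and GF replicate 1 stood far above the rest. The log2 fold change was 1.41 (SE 0.36, BH-adjusted p = 0.0227 in the same test), and without GF replicate 1 it was 0.97 (adjusted p = 0.0906); leaving out CONV-R replicate 2 or 4 also ended the call (0.0536 and 0.0557). *Cysltr2*, a cysteinyl leukotriene receptor and the gene of this group with the highest CPM, had 20.2 ± 3.52 CPM in CONV-R and 23.5 ± 5.53 in GF ECs (SD, n = 6 and 5), with a log2 fold change of 0.22 (BH-adjusted p = 0.497 in the same test).

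**Figure D2:**
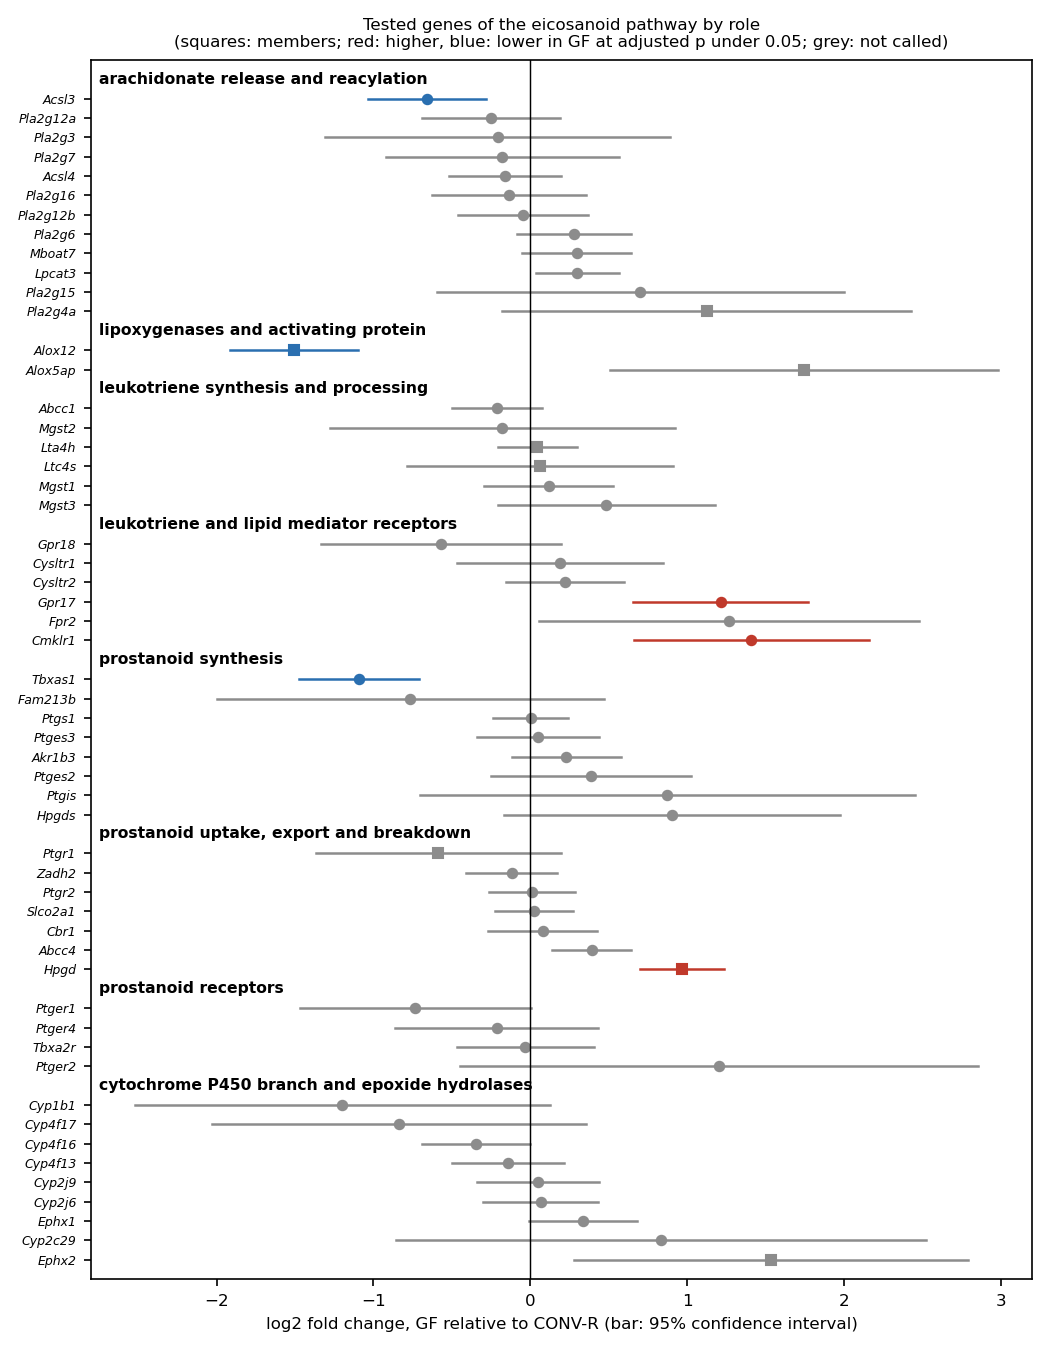
Log2 fold change of GF relative to CONV-R ECs (horizontal axis) for the 54 tested genes of the wider eicosanoid list, grouped by role, with 95% confidence intervals from edgeR. Squares are members and circles other genes; red and blue mark the 3 higher and 3 lower genes with an adjusted p under 0.05, among them *Hpgd* at 0.97 and *Alox12* at -1.51.

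*Hpgd* (ENSMUSG00000031613, chromosome 8, 56294585 to 56321043, plus strand, 7 exon blocks) encodes 15-hydroxyprostaglandin dehydrogenase, which takes the first step in prostaglandin breakdown. It had 415 CPM at the lowest, 519 at the median and 559 at the highest in CONV-R mice. GF mice had 788, 772, 1095, 1099 and 1182 CPM. Every GF library lay above every CONV-R library, and GF replicates 1 and 2 lay apart from the 3 others. The means were 505 ± 53.3 (SD, n = 6) and 987 ± 193 CPM (SD, n = 5), a 1.95-fold higher level in GF ECs with a 95% confidence interval of 1.62 to 2.36 (log2 fold change 0.97, SE 0.13, edgeR QL test, BH-adjusted p = 0.000178). When single mice were omitted the log2 fold change lay between 0.89 and 1.04, and the adjusted p was 0.000982 at most.

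*Alox12* and *Hpgd* differed between the groups in opposite directions, yet moved together inside them. With each library centred on its group mean, their log2 CPM had a Pearson r of 0.85 and a Spearman rho of 0.93 over 11 libraries, which share depth and scaling. GF replicates 1 and 2 were low and 5 and 6 high in both genes. Without the 2 libraries farthest from the median of *Alox12*, r was 0.71 over 9 libraries, and within the 6 CONV-R libraries it was 0.53. The genes that varied most like *Alox12* among those of at least 10 CPM were *1190002N15Rik* (r = 0.93), *Arf4* (0.92) and *Spryd7* (0.90), and those most like *Hpgd* were *Marc2* (0.93), *Ran* (0.90) and *Vdac2* (0.90). None of these 6 genes passed the threshold between the groups. Their r values were the highest of many compared and are given as a description.

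The ratio of the 2 transcripts within a library does not depend on scaling between libraries. *Hpgd* counts were 5.21 to 6.74 times those of *Alox12* in CONV-R libraries and 26.9 to 45.2 times in GF libraries. The ratios chosen here were set after the levels had been seen and are given as a description.

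**Figure D3:**
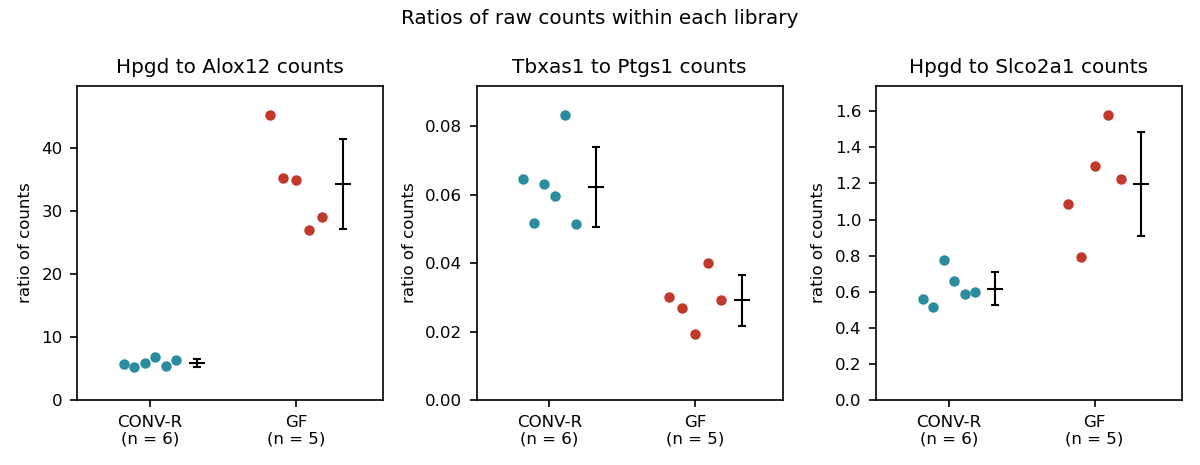
Ratios of raw counts within each library for 3 gene pairs, on linear axes from 0 (turquoise: CONV-R, n = 6; red: GF, n = 5; bars: mean ± SD). The *Hpgd* to *Alox12* ratio was 5.21 to 6.74 in CONV-R and 26.9 to 45.2 in GF mice, and neither of the other 2 ratios overlapped between groups.

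Around *Hpgd*, no other tested gene of prostanoid uptake, export and breakdown passed the threshold. *Slco2a1*, the transporter that carries prostaglandins into the cell, had 827 ± 101 CPM in CONV-R and 841 ± 130 in GF ECs (SD, n = 6 and 5), a log2 fold change of 0.02 (95% confidence interval -0.23 to 0.28; edgeR QL test, BH-adjusted p = 0.937). The count ratio of *Hpgd* to *Slco2a1* was accordingly 0.515 to 0.777 in CONV-R and 0.794 to 1.58 in GF libraries. Of the 7 tested genes of this group *Hpgd* was the 1 called. *Abcc4*, an exporter of prostaglandins named here after its values were seen, came next, with 157 ± 20.8 and 207 ± 28.3 CPM and a log2 fold change of 0.39 (BH-adjusted p = 0.0550 in the same test, and 0.0321 from DESeq2).

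*Ptgr1*, a reductase that follows *Hpgd* by reducing 15-keto prostaglandins and that also oxidises leukotriene B4 (ENSMUSG00000028378, chromosome 4, 58965439 to 58987119, minus strand), was not called. It had 2.79 CPM at the lowest, 4.13 at the median and 8.23 at the highest in CONV-R mice, and 2.73, 1.45, 5.05, 3.04 and 3.26 CPM in GF mice. The groups overlapped between 2.79 and 5.05 CPM, with 3 CONV-R libraries above and 2 GF libraries below that stretch, and the log2 fold change was -0.59 (SE 0.37, 95% confidence interval -1.37 to 0.20, edgeR QL test, BH-adjusted p = 0.367). With each library left out in turn it lay between -0.84 and -0.36. *Ptgr2*, a reductase of the same 15-keto substrates with more counts, had 34.8 ± 1.45 and 35.2 ± 5.93 CPM and a log2 fold change of 0.01 (BH-adjusted p = 0.973 in the same test).

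Prostanoid synthesis held 1 called gene among 8 tested. *Tbxas1*, thromboxane A synthase, had 31.8 to 46.0 CPM in CONV-R mice (median 36.2) and 14.9, 19.7, 10.8, 22.7 and 19.0 CPM in GF mice. The groups did not overlap, and the log2 fold change was -1.09 (SE 0.18, edgeR QL test, BH-adjusted p = 0.00140). *Ptgs1*, the cyclooxygenase COX-1 that makes the prostaglandin H2 on which *Tbxas1* acts, had 599 ± 61.2 and 600 ± 92.1 CPM (SD, n = 6 and 5) and a log2 fold change with a 95% confidence interval of -0.24 to 0.24. *Tbxas1* counts were 0.0515 to 0.0835 of *Ptgs1* counts in CONV-R and 0.0193 to 0.0400 in GF libraries. The thromboxane receptor *Tbxa2r* had 32.8 ± 11.2 and 32.2 ± 7.66 CPM and was not called (log2 fold change -0.03, BH-adjusted p = 0.957 in the same test), and none of the 4 tested prostanoid receptors was.

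**Figure D4:**
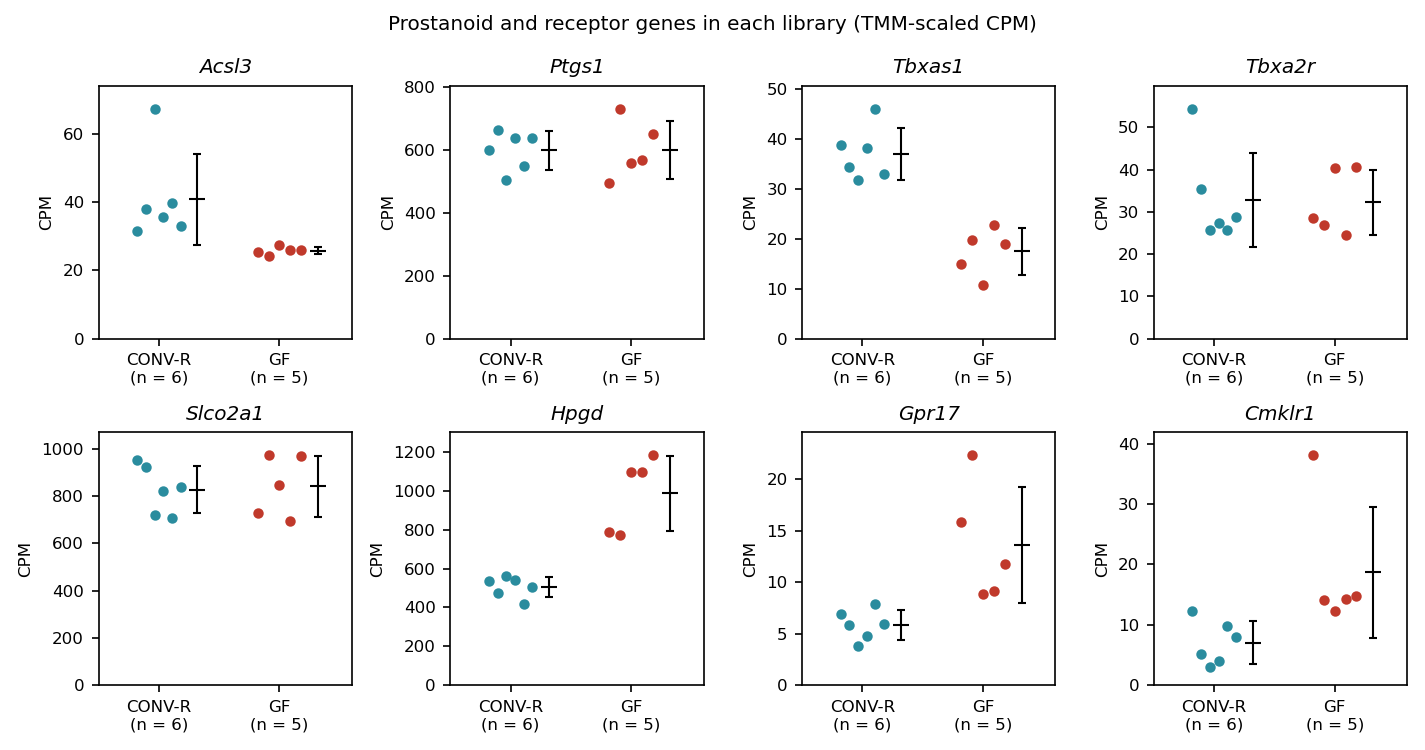
Levels in every library of *Hpgd* and 7 other genes of the pathway, in TMM-scaled CPM on linear axes from 0 (turquoise: CONV-R, n = 6; red: GF, n = 5; bars: mean ± SD). *Ptgs1*, *Slco2a1* and *Tbxa2r* overlapped between the groups, *Tbxas1* and *Acsl3* were lower in every GF library, and *Hpgd*, *Gpr17* and *Cmklr1* were higher.

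The cytochrome P450 branch ends with *Ephx2*, soluble epoxide hydrolase, which opens the epoxides of arachidonic acid (ENSMUSG00000022040, chromosome 14, 66084374 to 66124500, minus strand). It had 46 counts over the CONV-R and 94 over the GF libraries. Its level was 0.0803 CPM at the lowest, 0.601 at the median and 1.09 at the highest in CONV-R mice, and 1.75, 3.09, 1.14, 0.264 and 2.85 CPM in GF mice. GF replicates other than 5 lay above every CONV-R library, and GF replicate 5, with 2 counts, lay inside the CONV-R range. The log2 fold change was 1.53 (SE 0.60, 95% confidence interval 0.28 to 2.79) (edgeR QL test, BH-adjusted p = 0.130); without GF replicate 5 it was 1.80 (adjusted p = 0.0526). Of the 9 tested genes of this branch none was called, and *Cyp2j6*, an epoxygenase and the gene of this branch with the highest CPM, had a log2 fold change of 0.07 (BH-adjusted p = 0.867 in the same test).

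Over the wider list of 106 pathway genes, 104 were listed in the count table and 54 were tested. Of these, 3 were higher and 3 lower in GF ECs, that is *Hpgd*, *Gpr17* and *Cmklr1* against *Alox12*, *Tbxas1* and *Acsl3*, with a median log2 fold change of 0.05. Without the members, 2 of 46 were higher and 2 lower. The list counts stand beside the 7.48% of all tested genes that passed.

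Summed markers of other cells were set beside these values. The 12 Kupffer cell and macrophage markers summed to 90.3 to 237 CPM in CONV-R and 209 to 955 CPM in GF libraries (log2 difference 1.37, two-sided exact permutation test, p = 0.0152, adjusted over 11 lists 0.0833), and 7 of the 11 tested markers were called higher, among them *Clec4f* and *Csf1r*. Neutrophil and monocyte markers summed to 18.4 to 59.3 and 43.1 to 225 CPM (log2 difference 1.15, p = 0.0281 in the same exact permutation test, adjusted 0.103), most of it *Lyz2*. The neutrophil genes *S100a8* (31 CONV-R and 5 GF counts), *S100a9* (68 and 10) and *Mmp8* (15 and 1) had fewer counts in GF libraries, and as a mean of log2 CPM over the list the difference was -0.13. Lymphocyte and NK cell markers summed to 5.46 to 13.6 CPM in CONV-R and 3.09 to 5.81 CPM in GF libraries (log2 difference -0.88, p = 0.0130 in the same exact permutation test, adjusted 0.0833). Sinusoidal markers had a log2 difference of 0.08, sorting markers 0.31, other endothelial markers 0.29, hepatocyte markers 0.25, stellate cell markers -0.38, cholangiocyte markers 1.71 and mast cell markers 0.06, with adjusted p from 0.262 to 0.983 in that exact permutation test. With each library left out in turn, the hepatocyte value lay between 0.06 and 0.40, the stellate cell value between -0.58 and -0.03, the cholangiocyte value between 1.06 and 2.52 and the mast cell value between -0.58 and 0.37. As a mean of log2 CPM over the list, the hepatocyte difference was -0.0071 and the stellate cell difference 0.26. Within the other endothelial markers, 2 of 8 were called higher in GF ECs: *Cd34*, with 12.6 ± 3.32 CPM in CONV-R and 29.2 ± 7.24 in GF ECs (SD, n = 6 and 5; 2.31-fold, edgeR QL test, BH-adjusted p = 0.00183), and *Ly6a*, with 283 ± 69.8 and 552 ± 172 CPM (1.95-fold, BH-adjusted p = 0.00610 in the same test). The other 6 were not called; *Vwf* (0.76) and *Efnb2* (0.54) had positive and *Rspo3* (-0.82), *Selp* (-0.66), *Sox17* (-0.32) and *Plvap* (-0.17) negative log2 fold changes, with BH-adjusted p from 0.156 to 0.469 in that edgeR test. Within groups, the summed other endothelial markers had a Pearson r of -0.61 with *Alox12* and -0.57 with *Hpgd*. With the other tested members r ran from -0.33 (*Ptgr1*) to 0.27 (*Ephx2*). The part of other endothelial subtypes in the values of the members was not tested. Of 8 mast cell and basophil markers, 3 had no counts in any library. The summed macrophage level of the GF libraries stood beside the GF values of *Alox5ap*, *Pla2g4a*, *Cmklr1* and *Hpgd*, and its part in them was not tested. Within groups, the summed macrophage level had a Pearson r of 0.73 with *Pla2g4a*, 0.36 with *Alox5ap* and 0.12 with *Hpgd*. With *Ephx2*, *Alox12*, *Lta4h*, *Ptgr1* and *Ltc4s* it was 0.39, 0.15, 0.03, -0.25 and -0.36. GF replicates 4 and 5 had macrophage sums of 209 and 218 and *Hpgd* levels of 1095 and 1099 CPM. CONV-R replicates 1 and 6 had sums of 237 and 204 and *Hpgd* levels of 534 and 504 CPM. *Cmklr1* was highest in GF replicate 1.

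**Figure D5:**
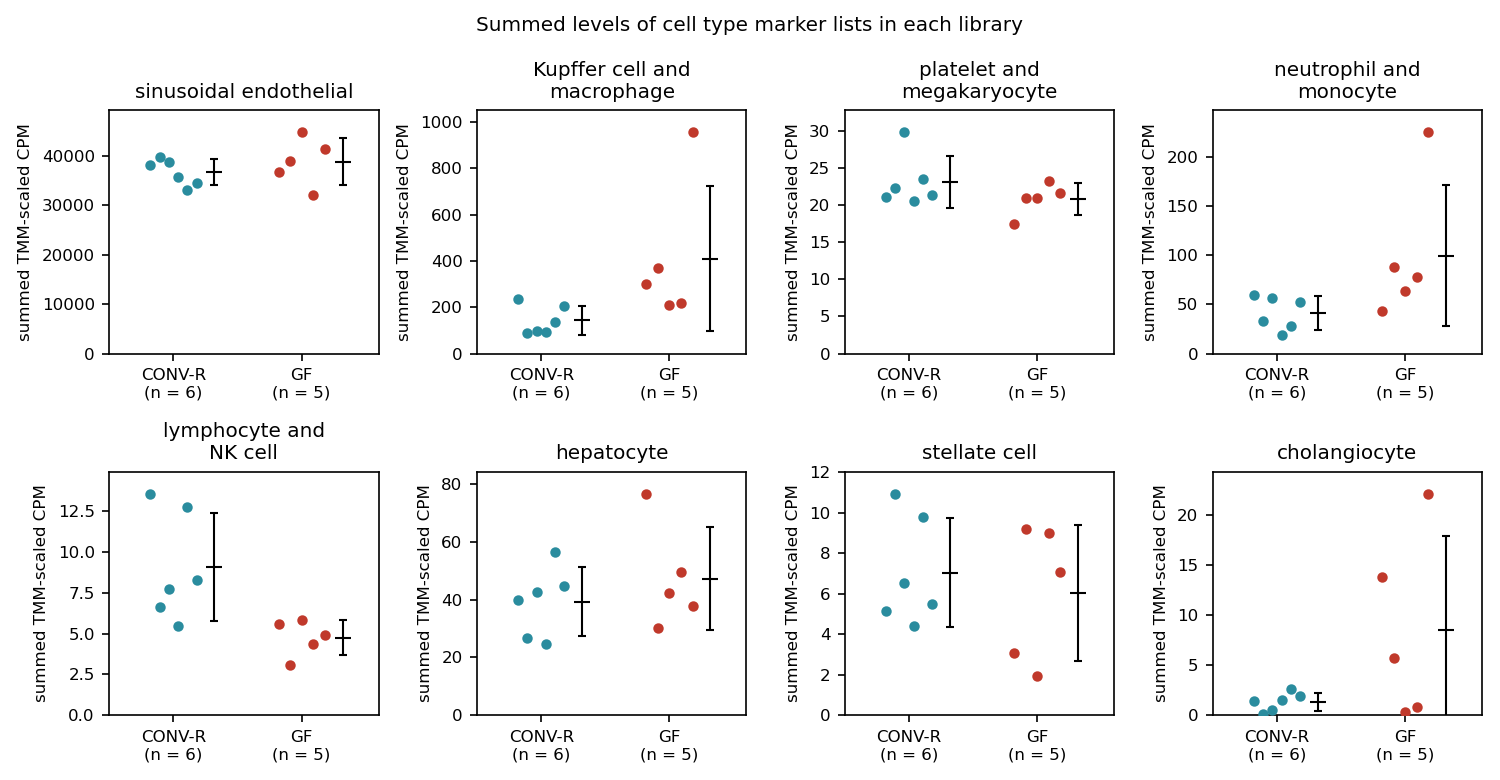
Summed TMM-scaled CPM of 8 marker lists in every library, on linear axes from 0 (turquoise: CONV-R, n = 6; red: GF, n = 5; bars: mean ± SD). Platelet markers overlapped between groups (20.6 to 29.8 and 17.4 to 23.3 CPM), and macrophage markers reached 955 CPM in GF replicate 6.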

How the data were processed

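RNA-seq libraries of sorted ECs, from 6 CONV-R and 5 GF mice, were grouped by the sample labels. The authors deposited raw counts per gene, without normalization. They trimmed reads (Trim Galore 0.4.4), mapped them to GRCm38 (STAR 2.5.2b) and counted them on genes (featureCounts 1.5.2). The annotation release and the strand setting are not given in the sources used here. A second table of normalized values was not used.

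Counts were compared in R 4.3.3 with edgeR 4.0.16 (TMM, filterByExpr, quasi-likelihood test, Benjamini-Hochberg adjustment across 12905 genes, threshold 0.05), without covariates. DESeq2 1.42.0, voom of limma 3.58.1, other scaling and filters, a replicate block and leaving out each library were alternatives. Log2 values used a prior count of 2. Marker lists were summed as CPM; 0.1 CPM was added before the log2 because a list was at 0 in some libraries. They were compared by two-sided exact permutation over all 462 splits, whose smallest p is 0.00216. Positions and exon lengths came from GENCODE M21 on GRCm38. Tests were tried on simulated data. Figures used Python 3.11.15 and matplotlib 3.10.9.

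With 7242717 to 16164588 counts per library, values of the members under 5 CPM rest on few reads, and counting error adds to the spread between mice. Each library is 1 mouse. The members, lists and motifs were chosen with earlier results of these data known. Named were all members, every called gene of the wider list, the gene with the highest mean CPM of each role, and the 3 genes most alike in pattern to a member. *Abcc4*, *Abcc1*, *Ptgr2* and single markers were named after their values were seen.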

Additional observations from a re-analysis of the deposited data

Results flagged for a closer look

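In 9 of 60 groups of values examined (15%), 1 library stood apart from the rest of its group by Dixon's gap ratio. This is the gap to the nearest library divided by the range of the group. About 1 in 20 groups would do this by chance if values were normally distributed. CPM were used without a log and need not follow that shape, and all 9 cases were on the high side. The values of a library are also not independent of each other, so the 15% is a description. CONV-R replicate 3, the CONV-R library with the lowest total (7922855 counts), was the highest of its group for *Lta4h* (103 against 77.1 CPM for the next, ratio 0.818), *Acsl3* (67.3 against 39.6 CPM, 0.776), *Alox5ap* (2.09 against 0.776 CPM, 0.707) and the summed platelet and megakaryocyte markers (29.8 against 23.6 CPM, 0.675). GF replicate 6 was the highest for the summed Kupffer cell and macrophage markers (955 against 370 CPM, 0.784) and the summed neutrophil and monocyte markers (225 against 88.6 CPM, 0.750). GF replicate 1 was the highest for *Cmklr1* (38.1 against 14.8 CPM, 0.903). GF replicate 2, the library with the most genes detected, was the highest for *Alox5* (1.26 against 0.397 CPM, 0.721). CONV-R replicate 1 was the highest for *Tbxa2r* (54.4 against 35.4 CPM, 0.660). Neither *Alox12* nor *Hpgd* had such a library in either group.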

How the results depend on the processing

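*Alox12* and *Hpgd* kept their direction and an adjusted p under 0.05 in all 17 alternatives, and members past the threshold numbered 2 or 3. Over all genes, DESeq2 called 1535 (931 higher, 604 lower) against 965 by edgeR, 956 of them shared, and leaving out single libraries gave 622 (without GF replicate 6) to 1260 (without GF replicate 5), with 625 without CONV-R replicate 4; the wider list then held 4 to 8 called genes. *Alox5ap* passed with DESeq2 (1.75) and without CONV-R replicate 3; its range over left-out libraries was 1.23 to 2.29. *Ltc4s* ranged from -0.10 to 0.35. Of 321 alternative gene values, 285 kept direction and side of the threshold, 9 lost and 6 gained the call, and 21 changed sign, all of genes near 0: *Ptgs1* (voom -0.0078, no filter -0.023, at least 10 counts in every library -0.0011, replicate block -0.054, left-out libraries -0.077 to 0.066), *Slco2a1* (block -0.020; -0.032 to 0.086), *Tbxa2r* (-0.13 to 0.17), *Cyp2j6* (-0.053 to 0.18) and *Ltc4s*. As a mean of log2 CPM in place of the sum, the marker differences changed sign for platelets (0.21), neutrophils and monocytes (-0.13), hepatocytes (-0.0071) and stellate cells (0.26); mast cell markers ranged from -0.58 to 0.37 over left-out libraries. The causes were not tested. Whether replicate numbers pair the mice is not stated in the sources used here. Deviations of same-numbered libraries correlated at -0.01 to 0.20, and only number 1 of 5 correlated best with its own number. With 5 pairs this cannot settle the question. With the replicate block 1101 genes passed, against 931 in the same libraries unblocked. For genes under about 5 CPM, counting error limits what can be seen.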

Other observations

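Scarce genes of the pathway, named after their values were seen, had too few counts for the filtered fit, and their values from edgeR's QL test without a filter on low counts are given. *Alox15*, the 12/15-lipoxygenase known from resident macrophages and eosinophils, had 7 counts over the 6 CONV-R and 42 over the 5 GF libraries, of which 20 were in GF replicate 6 and 12 in GF replicate 5 (BH-adjusted p = 0.0934 in that edgeR test). *Ptgs2*, the inducible cyclooxygenase COX-2, had 28 and 3 counts (BH-adjusted p = 0.324 in that edgeR test), and *Ptgir*, the prostacyclin receptor, 62 and 32 (BH-adjusted p = 0.869 in that edgeR test). *Cyp4a14*, a fatty acid hydroxylase known from hepatocytes, had 10 and 83 counts, 63 of them in GF replicate 1. It had a BH-adjusted p of 0.0431 in that edgeR test and 0.0627 in DESeq2, with 2 GF libraries at 0.

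The genes of at least 10 CPM that varied most like the other members, over 11 libraries centred on their group means and sharing depth and scaling, were *Cmtr1*, *Gpr183* and *Pxdn* for *Alox5ap* (Pearson r = 0.94, 0.89 and 0.89), *Lmo2*, *Psmg2* and *Ndufa7* for *Lta4h* (0.98, 0.98 and 0.97) and *Secisbp2*, *Ankra2* and *Birc2* for *Ltc4s* (0.93, 0.92 and 0.92). For *Ephx2* they were *Slc39a12*, *D430042O09Rik* and *Clpb* (0.90, 0.90 and 0.88), for *Ptgr1* *Acaa2*, *Gng11* and *Ndufs7* (0.92, 0.90 and 0.89), and for *Pla2g4a*, after *Adgre1*, *P3h1* and *Dcaf11* (both 0.86). All were picked as the highest of many r values, which raises them. *Lta4h* varied with the summed platelet markers as well (r = 0.91), with CONV-R replicate 3 high in both; without that library r was 0.75.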
